A study of Mus musculus with 9 samples.

Results

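The members described here are the 99 genes for the protein subunits of mouse oxidative phosphorylation, out of 49585 genes in the count table. They were chosen by gene symbol: the Ndufa, Ndufb, Ndufc, Ndufs and Ndufv genes, Sdha to Sdhd, Cyc1, the Uqcr genes, the subunits of the Cox4 to Cox8 families, the Atp5 genes and the 13 protein genes of the mitochondrial genome. Of these, 86 are nuclear and 13 are mitochondrially encoded. The 11 pseudogene rows with a matching symbol and the Ndufaf assembly factors are not members. RNA was measured in 9 spontaneous breast adenocarcinomas of mice. In one arm 6 tumours carried the label AAV-<delta>mut-p53, written AAV-delta-mut-p53 here, and in the other arm 3 tumours carried the label AAV-Control. Tumours of both arms were given adeno-associated virus (AAV) on days 0, 3 and 8, and were collected once euthanasia criteria were met. All 9 tumours, controls included, share the Trp53 genotype Trp53wm-R172H/fl, together with K14-Cre and with Rosa26LSL CAS9-P2A-EGFP/+. K14-Cre is driven by the keratin 14 promoter, known for its activity in epithelium, and in which cells of these tumours the Cre-dependent Cas9 allele was opened was not measured. The labels do not spell out wm, and the sources used here do not give the strain, the age or the interval to collection. Nothing in the labels says that the samples came from separate animals, and the titles of AAV-delta-mut-p53 tumours 4 and 5 share a number, so p-values measure only the spread between these samples.

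Oxidative phosphorylation passes electrons from NADH and succinate through complexes I, II, III and IV to oxygen, and complex V (ATP synthase) uses the proton gradient so built to make ATP. Most subunits are encoded in the nucleus and imported, whereas the membrane core of complexes I, III, IV and V is encoded by mitochondrial DNA, which is transcribed from both strands into long RNAs that are cut into single messages. Some complex IV subunits come in pairs, with one form in most tissues and another mainly in heart and skeletal muscle.

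The deposited counts summed to between 18581545 and 24567423 per AAV-delta-mut-p53 tumour and to between 26280250 and 30953250 per AAV-Control tumour, so every control library was the deeper one. Levels below are counts per 1000000 after TMM scaling (CPM). In each log2 fold change, from edgeR unless another tool is named, AAV-delta-mut-p53 is on top and AAV-Control below. Its SE follows the ± sign and was calculated from the fold change and its F statistic, as the edgeR test gives no SE. Trp53, the gene named in the label, had 13.1 CPM at the lowest, 38.4 at the median and 41.5 at the highest in AAV-delta-mut-p53 tumours, against 48.6, 39.3 and 42.3 CPM in AAV-Control tumours (-0.42 ± 0.37, edgeR adjusted p = 0.780). A count over the whole gene does not show whether an allele was edited. AAV-delta-mut-p53 tumour 2 stood apart in tissue content. Its 24 tested skeletal muscle markers summed to 45217 CPM, against 56.3 to 471 CPM in the other 8 tumours, its 8 leukocyte markers to 981 CPM, against 123 to 407 CPM, and its 8 epithelial markers to 229 CPM, against 1378 to 5166 CPM. Epcam, which marks epithelium, had 32.4 CPM there and 488 to 1004 CPM in the others.

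mt-Co2 encodes the complex IV subunit that accepts electrons from cytochrome c, and mt-Co3 encodes another core subunit of that complex. Each has a copy in nuclear chromosome 1, annotated as the unprocessed pseudogenes Gm28661 and Gm28437. The first 60 bases of both genes and of their copies, from GENCODE M21 transcripts on GRCm38 and read 5′ to 3′, are shown so that the letters of gene and copy can be compared. They are the same letter for letter, so no base is in capitals.
mt-Co2, chrM:7013-7696, plus strand: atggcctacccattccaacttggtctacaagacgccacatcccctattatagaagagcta
Gm28661, chr1:24614885-24615565, minus strand: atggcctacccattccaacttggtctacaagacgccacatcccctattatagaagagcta
mt-Co3, chrM:8607-9390, plus strand: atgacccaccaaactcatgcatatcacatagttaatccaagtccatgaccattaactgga
Gm28437, chr1:24613189-24613971, minus strand: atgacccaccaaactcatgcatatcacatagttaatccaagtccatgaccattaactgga

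Over the full copied length, mt-Co2 matched Gm28661 at 681 of 681 bases, mt-Co3 matched Gm28437 at 783 of 783 and mt-Atp6 matched Gm10925 at 678 of 678. Read in 50-base windows, 100% of the mt-Co2 transcript, 99.9% of mt-Co3, 99.5% of mt-Atp6, 98.8% of mt-Nd4l and 98.0% of mt-Nd3 also occurred in an annotated transcript of another gene. Per kilobase these genes had the lowest levels of the mitochondrially encoded members other than mt-Atp8. The mean over 9 tumours was 5.17 CPM per kilobase for mt-Co2, 6.35 for mt-Co3, 1.64 for mt-Atp6, 0.612 for mt-Nd3 and 0.131 for mt-Nd4l. mt-Co1, the catalytic subunit of complex IV, stood at 9407 CPM per kilobase although 51.1% of its windows are shared, and mt-Nd4 at 142 with 62.2% shared. The copy of mt-Co1 with the most shared windows, Gm29216, is 492 bases long against 1545 for the gene. mt-Atp8, a small subunit of ATP synthase, was also low, with 0.364 CPM per kilobase and 0.0% of windows shared. It lies between mt-Co2 and mt-Co3, at chrM:7766-7969. The windows were compared with annotated transcripts only. A copy of mt-Atp8 in unannotated sequence would not be counted, and none was looked for.

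In the tumours, mt-Co2 had 2.44 CPM at the lowest, 3.77 at the median and 6.88 at the highest in the AAV-delta-mut-p53 arm, against 1.79, 3.24 and 2.69 CPM in the AAV-Control arm (0.64 ± 0.48). mt-Co3 had 2.89, 4.99 and 9.79 CPM at the same points, against 2.64, 6.27 and 2.97 CPM in AAV-Control tumours (0.47 ± 0.52). mt-Atp6, the proton channel subunit of ATP synthase, had 0.693, 0.983 and 2.86 CPM, against 0.562, 1.23 and 0.792 CPM in AAV-Control tumours (0.53 ± 0.59). The arms overlapped for all 3 genes, and AAV-delta-mut-p53 tumour 2 was the highest of the 9 for each. Without that tumour the log2 fold change was 0.43 for mt-Co2, 0.23 for mt-Co3 and 0.10 for mt-Atp6. The nuclear copies, which are within 3 bases of the length of their genes, were counted too. Gm28661 had 7.01 to 19.1 CPM in AAV-delta-mut-p53 tumours and 3.60 to 9.64 CPM in AAV-Control tumours, and was above mt-Co2 in each of the 9. Gm28437 had 11.9 to 36.8 CPM and 7.09 to 23.1 CPM in the same order of arms, and was above mt-Co3 in each. mt-Nd3, mt-Nd4l and mt-Atp8 were counted with 0 to 11, 0 to 3 and 0 to 3 reads in AAV-delta-mut-p53 tumours, against 2 to 11, 0 to 1 and 2 to 4 reads in AAV-Control tumours, and did not pass the filter on low counts. The sources used here do not give how the authors' counting treated reads that match several places, and its part in these levels was not tested.

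**Figure D1:**
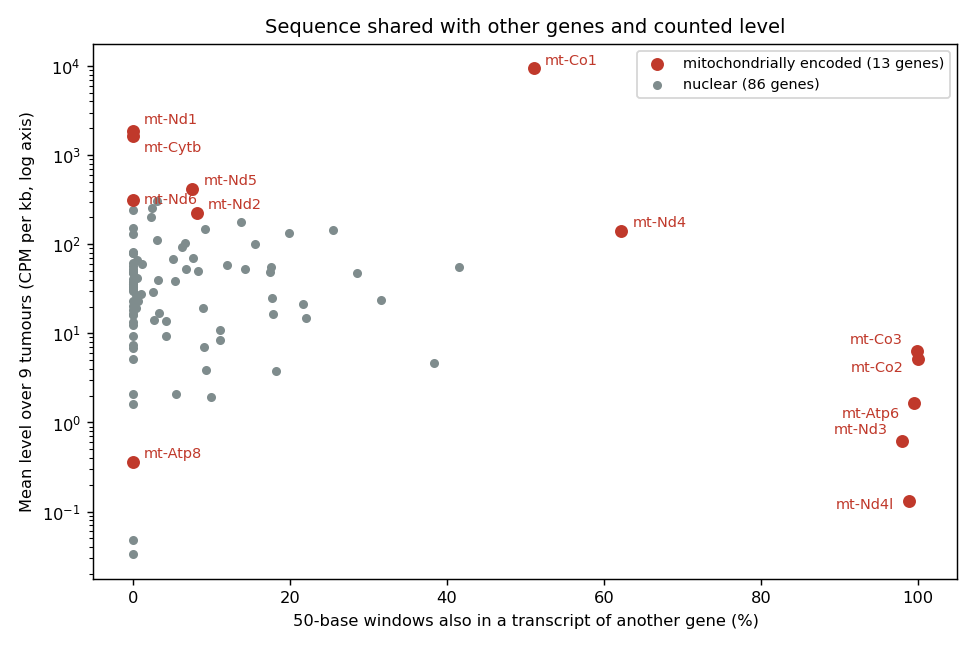
Each point is a subunit gene, red if mitochondrially encoded (13) and grey if nuclear (86). The x axis is the percentage of its 50-base windows that also occur in a transcript of another gene, and the y axis is its mean level over 9 tumours in CPM per kilobase on a log axis. mt-Co2, mt-Co3, mt-Atp6, mt-Nd3 and mt-Nd4l sit at 98.0% or more and at 6.35 CPM per kilobase or less, and mt-Co1 at 51.1% is the highest point.

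The other 7 tested mitochondrially encoded genes differed between the arms by less than their spread. mt-Co1 had 9848 CPM at the lowest, 14586 at the median and 17938 at the highest in AAV-delta-mut-p53 tumours, against 13905, 9796 and 21321 CPM in AAV-Control tumours (-0.07 ± 0.41). mt-Cytb, the mitochondrially encoded subunit of complex III, had 683, 1909 and 2766 CPM at the lowest, median and highest, against 1819.9, 1337 and 2559 CPM in AAV-Control tumours (-0.05 ± 0.42). mt-Nd1, a complex I subunit beside the quinone site, had 487, 1630.1 and 2911 CPM, against 2072, 1592 and 1831 CPM in AAV-Control tumours (-0.08 ± 0.47). The AAV-Control tumours lay inside the AAV-delta-mut-p53 range for mt-Nd1 and mt-Cytb, and for mt-Co1 they held both the lowest and the highest value. The proton-pumping subunits mt-Nd2, mt-Nd4 and mt-Nd5 had log2 fold changes of 0.31 ± 0.60, 0.27 ± 0.47 and -0.26 ± 0.43. mt-Nd6, the protein gene on the other strand, had 43.7, 162 and 238 CPM, against 155, 195 and 139.5 CPM in AAV-Control tumours (-0.03 ± 0.45). Of these 7 genes, 2 had a fitted value above 0 and 5 below, with a median of -0.05. The split turned with single tumours: 0 above and 7 below without AAV-delta-mut-p53 tumour 2 (median -0.14), 6 and 1 without AAV-delta-mut-p53 tumour 6 (0.12), and 5 and 2 without AAV-Control tumour 3 (0.21). The smallest edgeR adjusted p of a mitochondrially encoded gene was 0.737.

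AAV-delta-mut-p53 tumour 6 was the lowest of the 9 for mt-Nd1, mt-Nd2, mt-Nd4, mt-Nd5, mt-Nd6 and mt-Cytb. mt-Nd2 had 46.0 CPM there, 4.61-fold below the median of the other 8 tumours, which had 147 to 595 CPM. mt-Nd6 was 3.93-fold, mt-Nd1 3.58-fold and mt-Nd5 3.05-fold below the median of the others. mt-Co1 was less low, and made up 85.9% of the mitochondrially encoded subunit CPM in tumour 6, against 69.3 to 78.0% in the other 8. Of the mitochondrial ribosomal RNAs, mt-Rnr2 was also lowest there, with 13901 CPM against 15645 to 38288 CPM, while mt-Rnr1 had 2697 CPM against 2079 to 4062 CPM. AAV-delta-mut-p53 tumour 2 lay at the other end and was the highest of the 9 for 7 of the 10 tested genes, beside 19.9% of all genes. In bulk RNA, fewer cells of a type and less RNA per cell cannot be told apart.

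Across all genes the comparison of AAV-delta-mut-p53 with AAV-Control tumours called 0 of 19606 at an edgeR adjusted p under 0.05 (0.0%), and hence no member. limma voom called 0 genes (0.0%) and DESeq2 called 104 of 18806 (0.553%), of which 0 were members. Of the 99 members, 93 passed the filter, 83 nuclear and 10 mitochondrially encoded, and Cox7b2, Cox8b, Cox8c, mt-Nd3, mt-Nd4l and mt-Atp8 did not. Of the 83 nuclear members, 51 had a fitted log2 fold change above 0, a share of 61.4% beside 55.6% of all genes, and their median was 0.08 beside 0.09 for all genes. At an unadjusted edgeR p under 0.05 there was 1 member on the higher side, Atp5g1 (3.82% of all genes), and 2 on the lower side, Cox6b2 and Cox4i2 (3.26% of all genes). DESeq2 gave 4 members at its unadjusted p under 0.05 (10.2% of all genes) and limma voom gave 3 (10.4%), so the members' shares lay below the background. Atp5g1 was the 1 member whose AAV-delta-mut-p53 values all lay above the AAV-Control values (1.47% of all genes), and 0 members had them all below (1.59%). Without AAV-delta-mut-p53 tumour 4, or without AAV-Control tumour 2, the nuclear split was 42 above and 41 below 0.

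**Figure D2:**
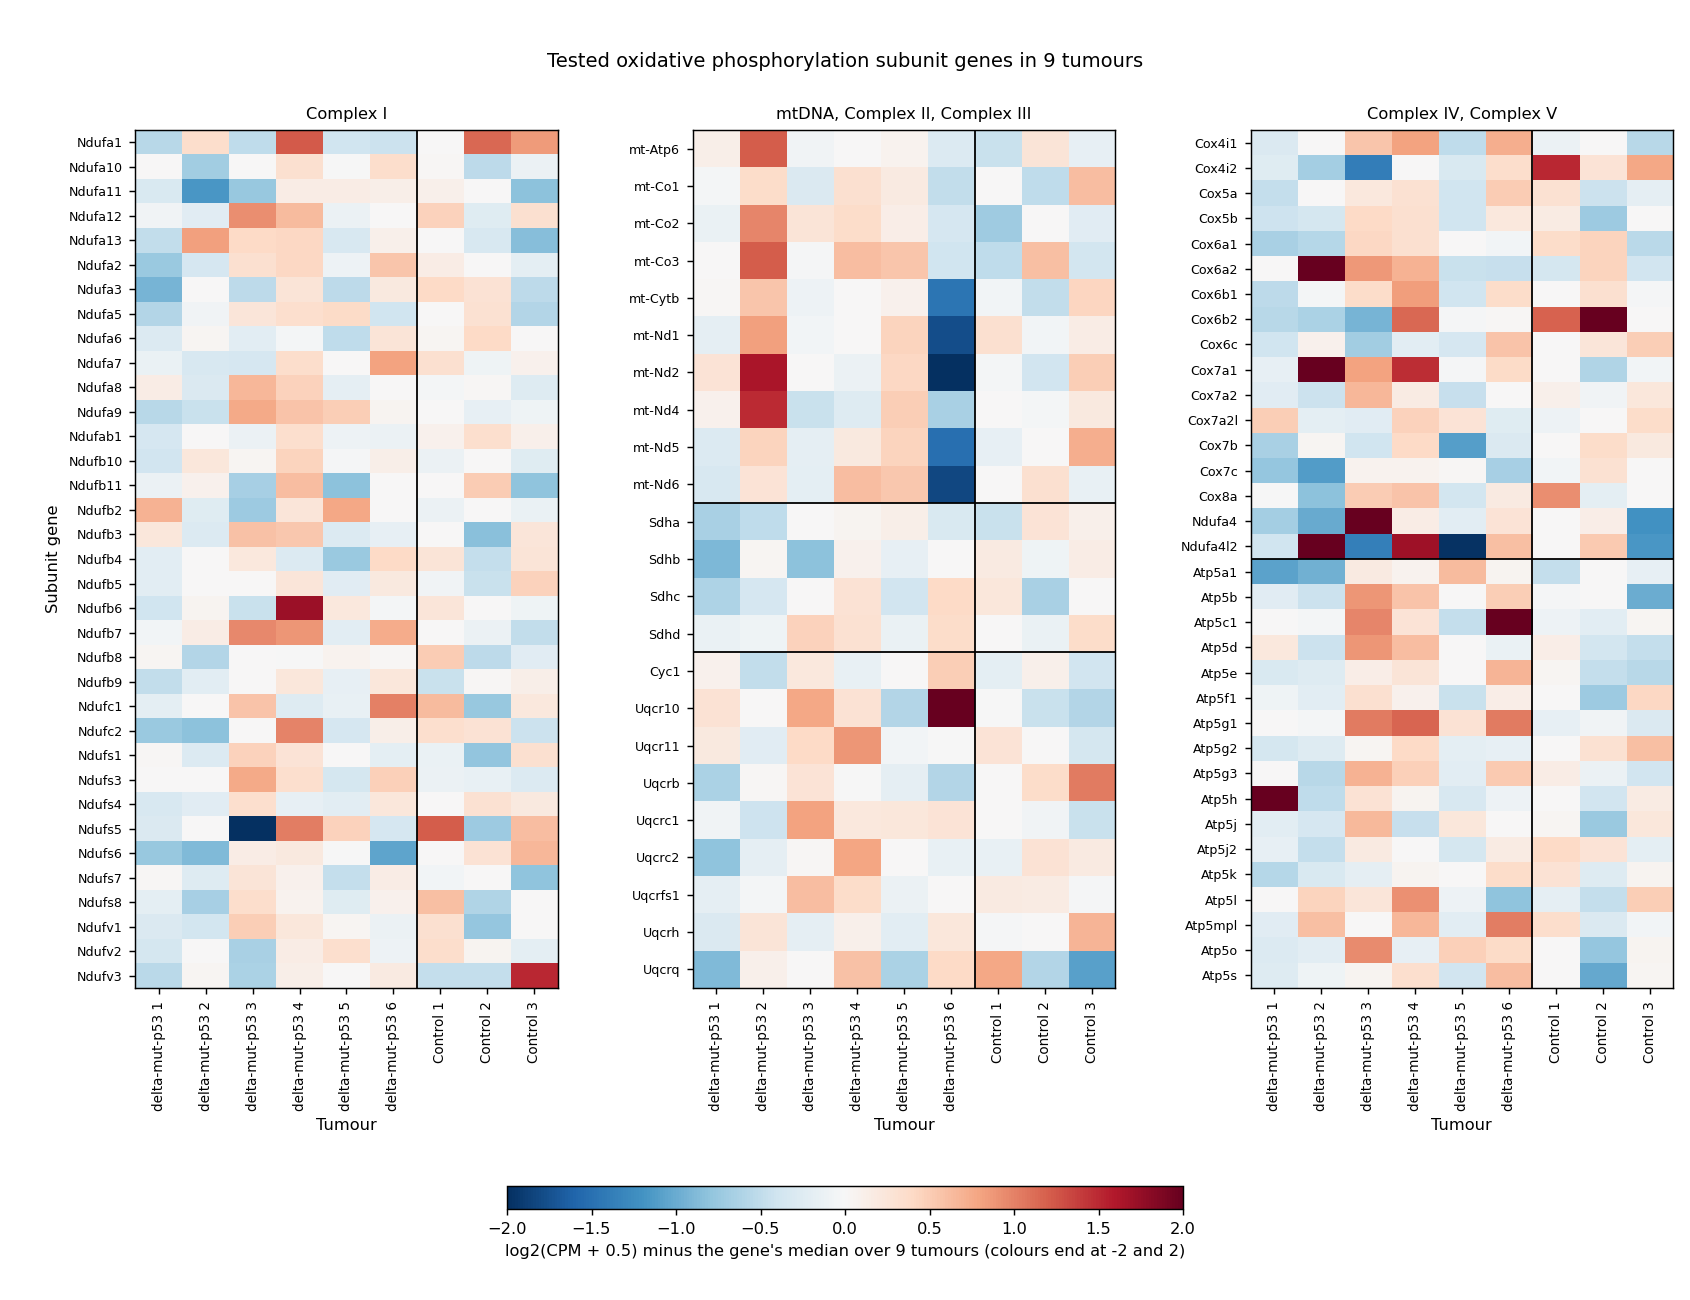
Rows are 92 of the 93 tested subunit genes by complex, and columns are the 6 AAV-delta-mut-p53 tumours and then the 3 AAV-Control tumours. Colour is log2(CPM + 0.5) minus the gene's median over the 9 tumours. Most rows are pale, and the strongest reds fall on single tumours: Cox6a2 at 99.1 CPM in AAV-delta-mut-p53 tumour 2, Ndufa4 at 875 CPM in tumour 3, Atp5c1 at 3247 CPM in tumour 6 and Atp5h at 699 CPM in tumour 1.

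The SD of log2 CPM over the 9 tumours had a median of 0.43 for nuclear members, 0.63 for mitochondrially encoded members and 0.72 for all genes tested, a measure that also depends on a gene's level. Among nuclear members it ran from 0.22 for Ndufab1, the mitochondrial acyl carrier protein, to 2.79 for Cox6a2. The joint level of the nuclear members varied between tumours of the AAV-delta-mut-p53 arm. Relative to each gene's median over the 9 tumours, the median nuclear member stood at -0.28, -0.22, 0.22, 0.32, -0.16 and 0.16 on the log2 scale in AAV-delta-mut-p53 tumours 1 to 6, against 0.00, -0.07 and 0.00 in AAV-Control tumours. The AAV-Control tumours lay close together with AAV-delta-mut-p53 tumours on both sides. AAV-delta-mut-p53 tumour 3 was the highest of the 9 for 22 of the 83 nuclear members, beside 12.4% of all genes, and tumour 1 was the lowest for 22, beside 9.12% of all genes.

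Complex I oxidises NADH. All 36 nuclear members were tested, with 20 above and 16 below 0, a median of 0.04 and 0 at an unadjusted edgeR p under 0.05. The split was 16 above and 20 below without AAV-delta-mut-p53 tumour 4, and the same without tumour 6 and under limma voom. Ndufs1, the large iron-sulphur subunit, had 91.1 CPM at the lowest, 111 at the median and 152 at the highest in AAV-delta-mut-p53 tumours, against 101, 64.0 and 139 CPM in AAV-Control tumours (0.19 ± 0.30), and the arms overlapped. Ndufb7, an accessory subunit of the membrane arm, had 23.2, 37.9 and 53.3 CPM, against 27.1, 25.0 and 19.1 CPM in AAV-Control tumours (0.68 ± 0.35, edgeR adjusted p = 0.677). Ndufs6, an accessory subunit, had 31.2, 52.2 and 75.3 CPM, against 65.7, 80.6 and 105 CPM in AAV-Control tumours (-0.65 ± 0.35, edgeR adjusted p = 0.678). The highest 2 values of Ndufs6 were in AAV-Control tumours. Ndufv3, an accessory subunit near the NADH site, had 42.9, 67.6 and 75.9 CPM, against 47.9, 48.0 and 191 CPM in AAV-Control tumours. Its log2 fold change of -0.62 ± 0.44 was 0.36 without AAV-Control tumour 3.

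Complex II, succinate dehydrogenase, is wholly nuclear and is also an enzyme of the citric acid cycle. Sdha, the flavoprotein, had 140.4 CPM at the lowest, 199 at the median and 239 at the highest in AAV-delta-mut-p53 tumours, against 162, 267 and 237 CPM in AAV-Control tumours (-0.20 ± 0.28). Sdhb, the iron-sulphur subunit, had 47.3, 83.6 and 93.5 CPM at the same points, against 99.6, 82.8 and 97.3 CPM in AAV-Control tumours (-0.32 ± 0.29). The membrane anchors Sdhc and Sdhd had log2 fold changes of 0.04 ± 0.32 and 0.06 ± 0.26. All 4 overlapped between the arms. The 95% interval of the log2 fold change, calculated from the SE, was -0.83 to 0.43 for Sdha and -0.97 to 0.33 for Sdhb. It was -0.66 to 0.74 for Sdhc and -0.52 to 0.63 for Sdhd. A change of 2-fold lay outside each, though only just for Sdhb.

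Complex III carries electrons from ubiquinol to cytochrome c. Of its 9 nuclear members 6 were above and 3 below 0, with a median of 0.09. The core proteins Uqcrc1 and Uqcrc2 had log2 fold changes of 0.37 ± 0.30 and -0.09 ± 0.33. Uqcrc1 had 102, 159 and 238 CPM at the lowest, median and highest in AAV-delta-mut-p53 tumours, against 137, 130.4 and 100.5 CPM in AAV-Control tumours, and Uqcrc2 had 77.6, 129 and 233 CPM, against 122, 165 and 154 CPM. Both genes overlapped between the arms. Uqcrb, a small subunit near the quinone site, had 76.0, 111 and 143 CPM, against 118, 152 and 242 CPM in AAV-Control tumours (-0.68 ± 0.31, edgeR adjusted p = 0.677, and -0.35 without AAV-Control tumour 3), and 25.5% of its windows are shared with other transcripts. Uqcr10, another small subunit, had 21.6, 39.9 and 157 CPM, against 32.4, 23.9 and 21.6 CPM in AAV-Control tumours. Its log2 fold change of 1.16 ± 0.59 was 0.55 without AAV-delta-mut-p53 tumour 6, which held the highest value.

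Complex IV, cytochrome c oxidase, reduces oxygen to water. Ndufa4, named for complex I but known as a complex IV subunit, and its relative Ndufa4l2 were counted here, which gave 20 nuclear members. Of the 17 tested, 9 were above and 8 below 0, with a median of 0.03. Cox4i1, the form of subunit 4 in most tissues, had 100.3 CPM at the lowest, 177 at the median and 251 at the highest in AAV-delta-mut-p53 tumours, against 133, 143 and 97.6 CPM in AAV-Control tumours (0.50 ± 0.36). Cox7a2l, known for linking complexes III and IV, had 205, 250.4 and 339 CPM, against 225, 241 and 311 CPM in AAV-Control tumours (0.03 ± 0.29). Cox6b1 and Cox7b, both of most tissues, had log2 fold changes of 0.08 ± 0.34 and -0.45 ± 0.33. The arms overlapped for these 4 genes.

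The members with the smallest p on the lower side were minor forms of complex IV subunits. Cox4i2, a form known from lung, had 0.977, 2.68 and 4.40 CPM at the lowest, median and highest in AAV-delta-mut-p53 tumours, against 10.5, 4.17 and 6.10 CPM in AAV-Control tumours (-1.37 ± 0.52, edgeR unadjusted p = 0.0229, adjusted p = 0.677). The value ran from -1.63 to -0.95 when tumours were left out in turn. Per kilobase, Cox4i2 made up 0.907 to 4.87% of the Cox4i1 and Cox4i2 pair in AAV-delta-mut-p53 tumours, against 13.4, 5.41 and 10.9% in AAV-Control tumours. The 8 stroma and endothelial markers had 3 values above and 5 below 0 with a median of -0.22, and summed to 905 to 16351 CPM in AAV-delta-mut-p53 tumours and 855 to 7199 CPM in AAV-Control tumours. Without AAV-delta-mut-p53 tumour 2 there were 0 above and 8 below 0 with a median of -1.04, and without AAV-Control tumour 2 there were 4 above and 4 below with a median of 0.44. Among them the endothelial genes Cdh5 (-1.31 ± 0.37) and Pecam1 (-0.92 ± 0.40) had an unadjusted edgeR p under 0.05, and the endothelial gene Kdr did not. The part of these markers in the Cox4i2 value was not tested. Cox6b2, known from testis, had 0.0977, 0.445 and 2.01 CPM, against 2.07, 9.61 and 0.634 CPM in AAV-Control tumours (-2.67 ± 0.95, edgeR unadjusted p = 0.0174, adjusted p = 0.677). AAV-Control tumour 2 held 288 reads of it, and without that tumour the log2 fold change was -1.07. Cox7b2 and Cox8c, also known from testis, were counted with 0 to 1 and 0 to 0 reads in AAV-delta-mut-p53 tumours, against 0 to 3 and 0 to 5 reads in AAV-Control tumours.

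Of the 17 nuclear members of complex V, 14 were above and 3 below 0, a share of 82.4% beside 55.6% of all genes, with a median log2 fold change of 0.37. The count above 0 ran from 12 to 15 over the other settings, and the median from 0.22 to 0.54. Atp5b and Atp5a1 encode the beta and alpha subunits of the catalytic head. Atp5b had 579 CPM at the lowest, 935 at the median and 1436 at the highest in AAV-delta-mut-p53 tumours, against 769, 779 and 391 CPM in AAV-Control tumours (0.56 ± 0.39, and 0.29 without AAV-Control tumour 3). Atp5a1 had 407, 894 and 1322 CPM at the same points, against 615, 854 and 760.0 CPM in AAV-Control tumours (0.14 ± 0.41). The arms overlapped for both.

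Atp5g1 encodes the c subunit of the rotating ring. It had 30.1, 29.4, 62.3, 68.4, 37.0 and 62.7 CPM in AAV-delta-mut-p53 tumours 1 to 6, against 26.9, 28.6 and 24.6 CPM in AAV-Control tumours. Every AAV-delta-mut-p53 tumour was above every AAV-Control tumour, with tumours 1 and 2 less than 2 CPM above the highest control. The means were 48.3 ± 18 CPM and 26.7 ± 1.99 CPM (SD, n = 6 and 3). The log2 fold change of 0.86 ± 0.36 did not pass (edgeR unadjusted p = 0.0379, adjusted p = 0.677), and it ran from 0.74 to 0.97 when tumours were left out in turn. Atp5g2 and Atp5g3, which encode the same mature protein and were looked up after these values were seen, had log2 fold changes of -0.41 ± 0.36 and 0.33 ± 0.33. Of the Atp5g2 windows, 38.3% are shared with other transcripts.

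The muscle isoforms Cox6a2, Cox7a1 and Cox8b were high in a single tumour. Cox6a2 had 99.1 CPM in AAV-delta-mut-p53 tumour 2 and 0.122 to 1.07 CPM in the other 5 tumours of the arm, against 0.176, 0.667 and 0.158 CPM in AAV-Control tumours. Cox7a1 had 22.8 CPM in tumour 2 and 1.80 to 6.64 CPM in the other 5, against 2.07, 1.20 and 1.98 CPM in AAV-Control tumours. Cox8b, which did not pass the filter, had 452 reads in tumour 2 and 0 to 6 in the other 5, against 1, 2 and 8 reads in AAV-Control tumours. Outside tumour 2 the arms overlapped for all 3. The log2 fold change was 5.63 ± 2.60 for Cox6a2 and 1.93 ± 0.90 for Cox7a1 (edgeR adjusted p = 0.677 for each), and without tumour 2 it was 0.61 and 0.99. Ttn, the giant sarcomere protein, had 25443 CPM in tumour 2 and 15.1 to 203 CPM in the other 8, and Ckm, muscle creatine kinase, had 1204 CPM and 0 to 10.4 CPM. All 24 tested muscle markers had values above 0, with a median of 5.67, and without tumour 2 there were 19 above and 4 below with a median of 0.64. The part of muscle tissue in these values was not tested.

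The partner forms found in most tissues were not high in the same tumour. Cox6a1 had 69.3 CPM in AAV-delta-mut-p53 tumour 2 and 65.4 to 138 CPM in the other 5, against 133, 140.2 and 71.0 CPM in AAV-Control tumours (-0.19 ± 0.34). Cox7a2 had 54.0 CPM and 52.9 to 116 CPM, against 78.0, 69.0 and 85.3 CPM in AAV-Control tumours (-0.08 ± 0.30). Cox8a had 46.6 CPM and 63.9 to 123 CPM, against 158, 71.9 and 82.7 CPM in AAV-Control tumours (-0.24 ± 0.37). Compared per kilobase, the muscle form made up 59.6% of the Cox6a pair, 42.7% of the Cox7a pair and 43.5% of the Cox8 pair in tumour 2. In the other 8 tumours the same shares were 0.127 to 0.797%, 2.98 to 12.5% and 0 to 0.709%. In those 8 tumours Cox7a1 thus had a share of 2.98% or more, while Cox6a2 and Cox8b stayed under 1%. On the log2 scale the ratio of summed muscle forms to summed partners was -0.25 in tumour 2 and -6.54 to -5.41 in the other 5, against -7.33, -7.18 and -6.60 in AAV-Control tumours.

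Cox7a1 and Cox8b are also expressed in brown fat, so fat markers were read beside them. The 13 tested fat markers summed to 629 CPM in AAV-delta-mut-p53 tumour 2 and 62.5 to 211 CPM in the other 5, against 192, 108 and 85.7 CPM in AAV-Control tumours, with 10 fitted values above and 3 below 0, and 8 above and 5 below without tumour 2. Adipoq, the adipocyte hormone adiponectin, had 34.7 CPM in tumour 2 and 0.326 to 5.37 CPM in the other 8. Ucp1, which defines brown fat, was at 0 CPM in tumour 2 and at most 0.448 CPM in any tumour. Ndufa4l2, a relative of Ndufa4 that responds to low oxygen, was also highest in tumour 2, with 63.7 CPM there and 1.24 to 21.6 CPM in the other 5, against 6.36, 9.41 and 2.57 CPM in AAV-Control tumours. Its log2 fold change of 1.49 ± 1.15 was 0.38 without that tumour.

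**Figure D3:**
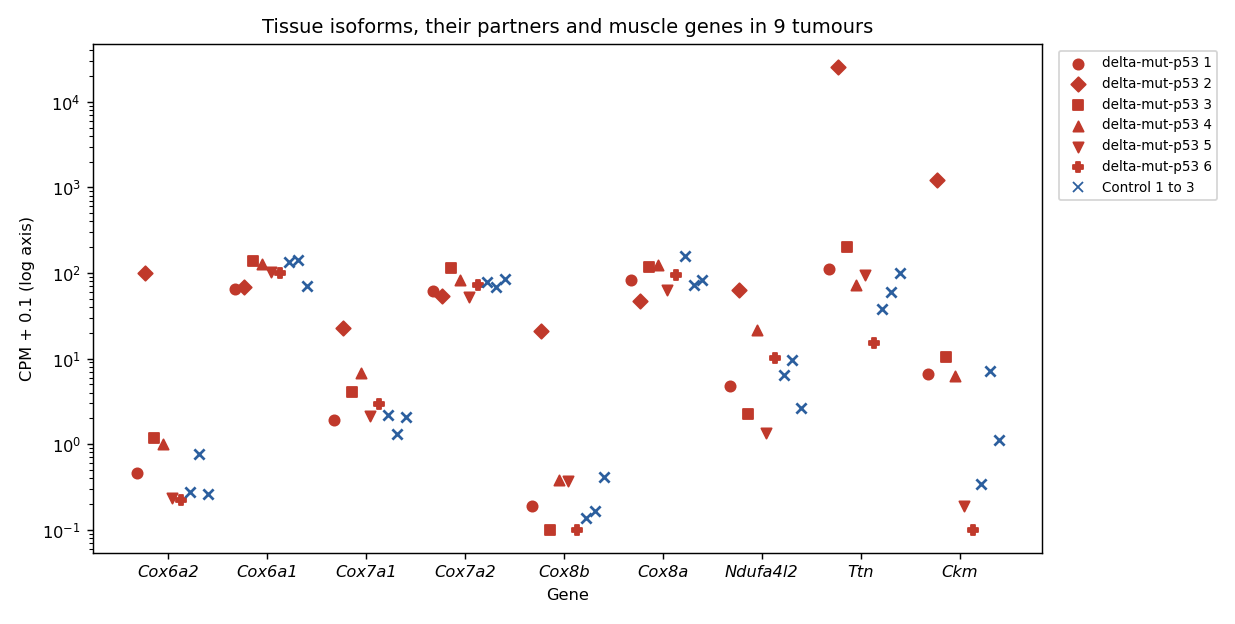
Points are single tumours, red for AAV-delta-mut-p53 with a symbol for each tumour and blue crosses for the 3 AAV-Control tumours, and the y axis is CPM + 0.1 on a log axis. The diamond of AAV-delta-mut-p53 tumour 2 is the highest point for Cox6a2 (99.1 CPM), Cox7a1 (22.8), Cox8b (20.9), Ndufa4l2, Ttn and Ckm, and is in the lower part of the points for Cox6a1, Cox7a2 and Cox8a.

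Promoter sequences (RefSeq, GRCm38.p6, 250 bases before to 50 after the start) were found for 69 of the 86 nuclear members. Those of Cox7a1 and Cox8b are shown because both genes were high in tumour 2, and that of Cox6a1 because it was not. No promoter was found for the muscle isoform Cox6a2. Matches on either strand to GCGCA and GCGC with any base between, the motif of the transcription factor NRF1, and to CAGCTG, an E-box of the kind bound by muscle regulators, are in capitals.
Cox7a1, chr7:30183921-30184220, plus strand: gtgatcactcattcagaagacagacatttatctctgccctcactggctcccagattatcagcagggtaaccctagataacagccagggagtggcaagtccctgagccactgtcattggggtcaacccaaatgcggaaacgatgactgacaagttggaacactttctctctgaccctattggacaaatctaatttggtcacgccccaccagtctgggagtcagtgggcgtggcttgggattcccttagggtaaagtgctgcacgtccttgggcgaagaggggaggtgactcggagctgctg
Cox8b, chr7:140900397-140900696, minus strand: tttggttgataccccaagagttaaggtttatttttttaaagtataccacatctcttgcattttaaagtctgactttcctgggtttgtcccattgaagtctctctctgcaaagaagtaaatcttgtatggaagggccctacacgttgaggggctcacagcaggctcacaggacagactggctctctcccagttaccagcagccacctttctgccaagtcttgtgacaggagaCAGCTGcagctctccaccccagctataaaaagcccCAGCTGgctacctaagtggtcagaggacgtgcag
Cox6a1, chr5:115348909-115349208, minus strand: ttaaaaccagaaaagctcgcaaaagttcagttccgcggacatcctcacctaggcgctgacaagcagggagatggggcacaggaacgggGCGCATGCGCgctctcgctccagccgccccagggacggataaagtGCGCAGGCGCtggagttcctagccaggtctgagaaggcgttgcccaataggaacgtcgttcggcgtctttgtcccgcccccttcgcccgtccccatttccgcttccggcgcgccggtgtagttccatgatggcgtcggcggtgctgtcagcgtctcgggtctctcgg

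Cox8b held 2 matches to CAGCTG, Cox6a1 held 2 to the NRF1 motif and Cox7a1 held 0 of either. The NRF1 motif was in 18 of the 74 promoters listed for these 69 members (24.3%), beside 4.60% of all 32851 promoters of the same length. The YY1 motif (AA and ATGGCGG with any base between) was in 8.11% beside 1.36%, TCAAGGTCA, bound by oestrogen-related receptors, in 2.70% beside 0.423%, and CCGGAAGT, an ETS factor motif, in 6.76% beside 3.89%. CAGCTG was in 8.11% beside 16.3%. The 5 motifs were searched on both strands and do not contain each other, and the median GC content was 57.5% for members and 52.7% for all promoters. These are matches of letters and not evidence of binding. The genes Nrf1 and Yy1 had log2 fold changes of -0.03 ± 0.28 and 0.46 ± 0.24.

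The nuclear members summed to 6233, 5884, 9787, 8932, 7044 and 11156 CPM in AAV-delta-mut-p53 tumours 1 to 6, against 7071, 6812 and 6899 CPM in AAV-Control tumours. The mitochondrially encoded members summed to 17998, 25867, 15847, 22372, 21659.5 and 11471 CPM in AAV-delta-mut-p53 tumours, against 18953, 13958 and 27511 CPM in AAV-Control tumours. AAV-delta-mut-p53 tumour 6 had the highest nuclear sum and the lowest mitochondrial sum, and AAV-delta-mut-p53 tumour 2 had the lowest nuclear sum. Atp5c1 alone gave 3247 CPM of the nuclear sum in tumour 6. By the median nuclear member, tumour 6 (0.16 on the log2 scale) stood below tumours 3 and 4 (0.22 and 0.32). The ratio of mitochondrial to nuclear subunit counts was 2.89, 4.38, 1.62, 2.50, 3.07 and 1.03 in AAV-delta-mut-p53 tumours, against 2.68, 2.05 and 3.99 in AAV-Control tumours. mt-Co1 gave 69.3 to 85.9% of the mitochondrially encoded CPM, so the ratio is largely that of mt-Co1 to the nuclear members. The low counts of mt-Co2, mt-Co3, mt-Atp6, mt-Nd3 and mt-Nd4l added little to it. The ratio was highest in AAV-delta-mut-p53 tumour 2 and lowest in tumour 6, and the AAV-Control tumours lay between them. Its log2 averaged 1.22 ± 0.74 in AAV-delta-mut-p53 tumours and 1.48 ± 0.48 in AAV-Control tumours (SD, n = 6 and 3), and the difference of -0.26 was smaller than either SD. Being taken within a library, the ratio does not depend on the scaling.

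A single gene took part in the high nuclear sum and the low ratio of AAV-delta-mut-p53 tumour 6. Atp5c1, the gamma subunit that turns within the catalytic head of ATP synthase, supplied 29.1% of the nuclear subunit CPM there, against 2.42 to 4.75% in the other 8 tumours. Without Atp5c1 the ratio was 1.45 in tumour 6 and 1.70 to 4.56 in the other 5, against 2.77, 2.11 and 4.13 in AAV-Control tumours, so tumour 6 remained the lowest. The difference of the means on the log2 scale was then -0.18.

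**Figure D4:**
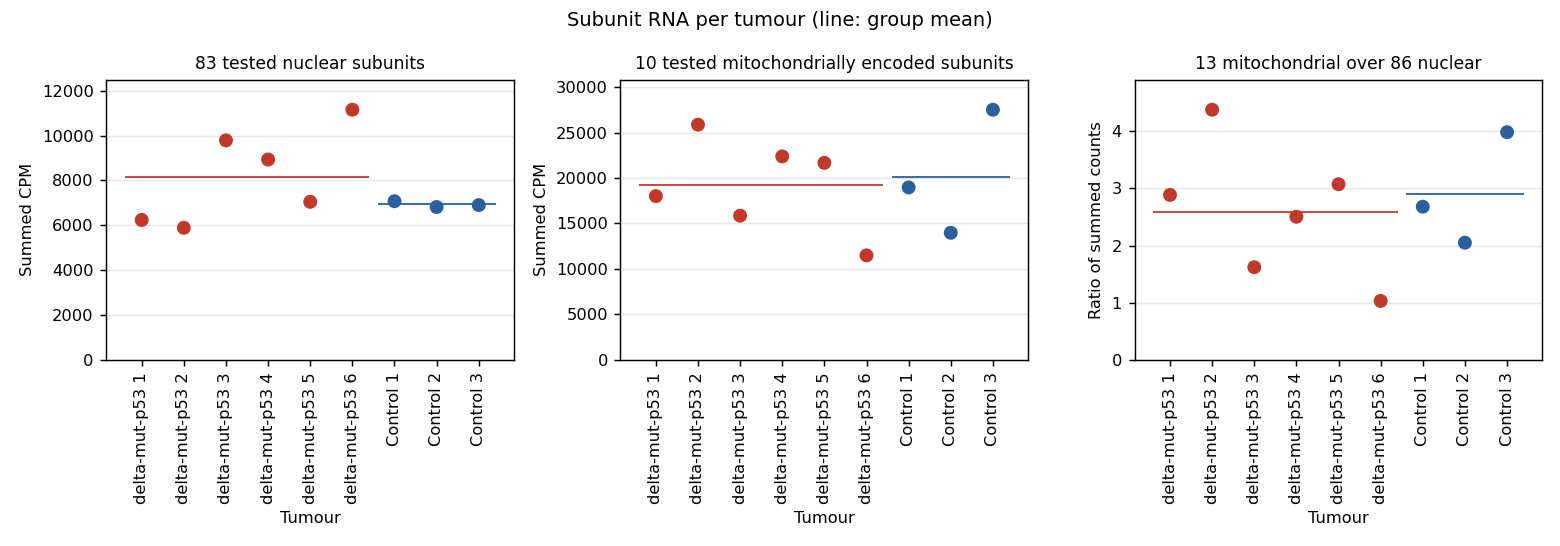
Points are single tumours, red for the 6 AAV-delta-mut-p53 and blue for the 3 AAV-Control tumours, with a line at the arm's mean. The panels show the summed CPM of the 83 tested nuclear members, the summed CPM of the 10 tested mitochondrially encoded members, and the ratio of mitochondrial to nuclear counts over all 99 members. mt-Co1 gave 69.3 to 85.9% of the mitochondrially encoded CPM. AAV-delta-mut-p53 tumour 6 has the highest nuclear sum (11156 CPM, of which Atp5c1 gave 3247 CPM) and the lowest ratio (1.03). The AAV-Control tumours span 6812 to 7071 CPM in the nuclear sum.

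Several nuclear members reached 3 times the median of the other 8 tumours in a single tumour, and the genes beside them on the chromosome were then read. These neighbours are the 5 genes on each side with a mean of at least 5 CPM, and this reading and the genes named in it were chosen after the values were seen. Ndufa4 (chr6:11900292-11907497) had 875 CPM in AAV-delta-mut-p53 tumour 3 and 54.4 to 133 CPM in the other 5, against 109, 120.4 and 47.2 CPM in AAV-Control tumours. It was 8.61-fold the median of the others, and 10 of its 10 neighbours were at 2-fold or more with a median of 8.93-fold, beside 10.5% of 11723 genes in that tumour. The largest were Ica1 at 23.0-fold and Tmem106b at 14.8-fold. The log2 fold change of Ndufa4 was 1.28 ± 0.91, and 0.03 without tumour 3.

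Atp5c1 (chr2:10056016-10080510) had 3247 CPM in AAV-delta-mut-p53 tumour 6 and 170.3 to 465 CPM in the other 5, against 221, 203 and 244 CPM in AAV-Control tumours. It was 14.0-fold the median of the others, and 8 of its 10 neighbours were at 2-fold or more with a median of 7.39-fold, beside 13.6% of 11723 genes in that tumour. Gata3, a transcription factor of luminal breast epithelium, was among them at 9.29-fold. The log2 fold change of Atp5c1 was 1.79 ± 1.0, and 0.32 without tumour 6. Uqcr10 (chr11:4701973-4704342) was high in the same tumour at 4.83-fold, with 8 of 10 neighbours at 2-fold or more and a median of 4.46-fold.

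Atp5h (chr11:115415689-115419962), of the peripheral stalk of ATP synthase, had 699 CPM in AAV-delta-mut-p53 tumour 1 and 98.6 to 172 CPM in the other 5, against 140.1, 108 and 157 CPM in AAV-Control tumours. It was 5.16-fold the median of the others, and 10 of its 10 neighbours were at 2-fold or more with a median of 5.79-fold, beside 5.75% of 11723 genes in that tumour. Its log2 fold change was 0.75 ± 0.64, and -0.02 without tumour 1. Ndufb6 (chr4:40270591-40279421), an accessory subunit of complex I, had 42.5 CPM in AAV-delta-mut-p53 tumour 4 and 9.23 to 14.8 CPM in the other 5, against 15.2, 12.7 and 11.9 CPM in AAV-Control tumours. It was 3.39-fold the median of the others, and 7 of its 10 neighbours were at 2-fold or more with a median of 2.42-fold, beside 7.84% of 11723 genes in that tumour. Ndufv3 (chr17:31520115-31531331), described above for AAV-Control tumour 3, was at 3.32-fold there with 5 of 10 neighbours at 2-fold or more, beside 6.25% of genes.

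The neighbours of the muscle isoforms gave other values. In AAV-delta-mut-p53 tumour 2, 0 of 10 neighbours of Cox7a1 and 3 of 10 of Cox6a2 were at 2-fold or more, beside 14.3% of genes, while Cox7a1 was at 11.1-fold and Cox6a2 at 370.2-fold the median of the others. Ndufs5, an accessory subunit of complex I, was low in a single tumour, with 2.44 CPM in AAV-delta-mut-p53 tumour 3 and 12.1 to 31.9 CPM in the other 5, against 36.2, 9.07 and 23.8 CPM in AAV-Control tumours. Of its 10 neighbours, 0 were 2-fold or more below the median of the others, beside 10.3% of genes in that tumour. Their median was 0.712-fold, and 5 of the 10 were at their lowest of the 9 tumours there, beside 15.0% of all genes. For Ndufs5 itself, 21.7% of its windows are shared with a processed pseudogene. DNA copy number was not measured here, and its part in these values was not tested.

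**Figure D5:**
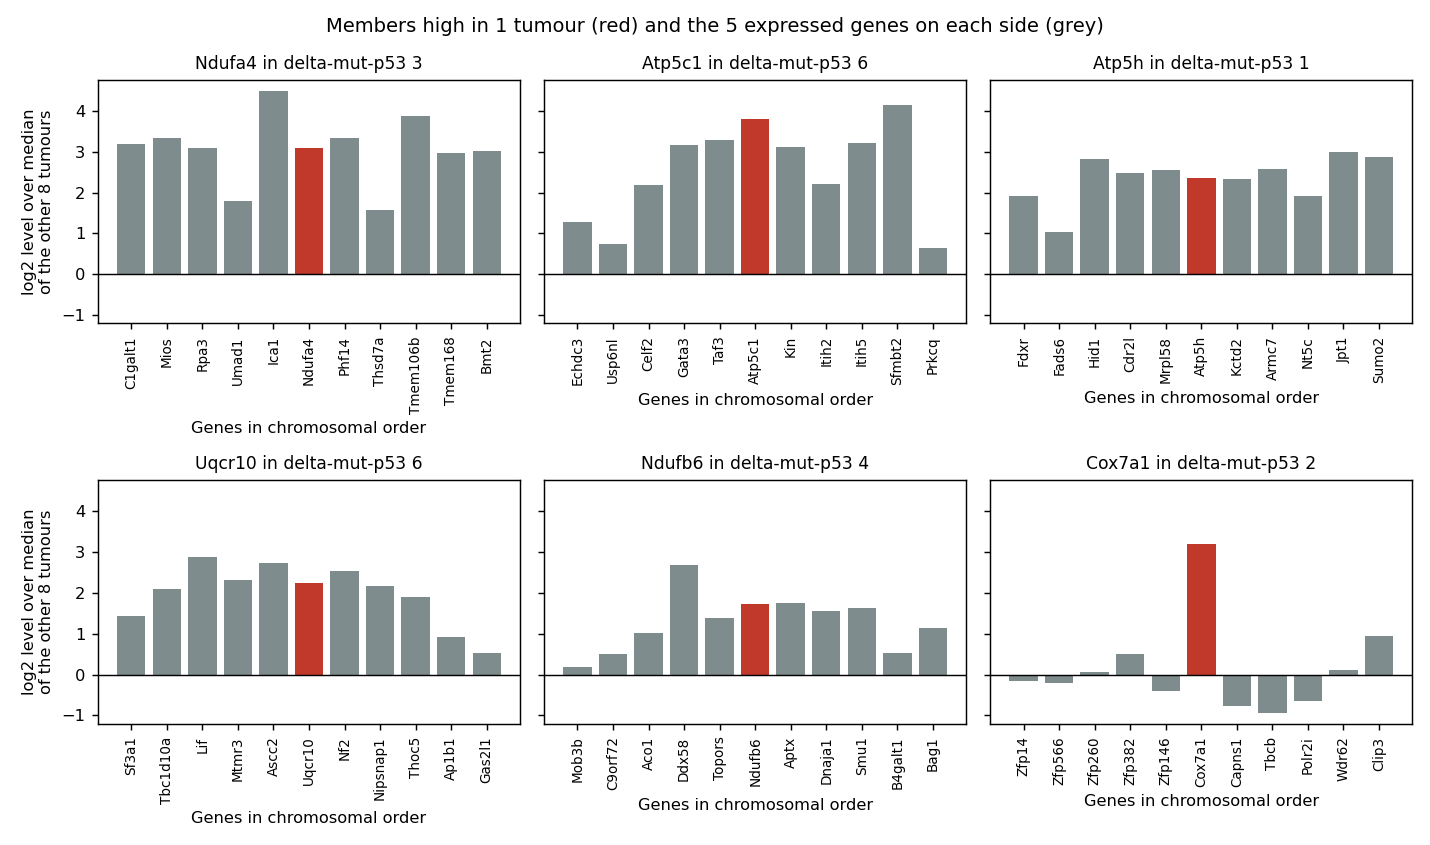
Bars give the log2 of a gene's CPM in the named tumour over the median of the other 8, for a member in red and for the 5 expressed genes on each side in grey, in chromosomal order. The grey bars stand above 0 around Ndufa4, Atp5c1, Atp5h, Uqcr10 and Ndufb6, with median folds from 2.42 to 8.93, and lie on both sides of 0 around Cox7a1.

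Other genes of mitochondrial metabolism were read from lists, and edgeR called 0 of them. Of 16 citric acid cycle genes, 9 were above and 7 below 0 with a median of 0.04 (-0.04 to 0.15 with a tumour left out). Citrate synthase (Cs) was at 0.47 ± 0.31, Ogdh of the 2-oxoglutarate dehydrogenase complex at 0.69 ± 0.35 and Pdha1 of pyruvate dehydrogenase at -0.55 ± 0.27. Of 15 tested regulators of mitochondrial biogenesis, 8 were above and 7 below 0 with a median of 0.16 (-0.02 to 0.31 with a tumour left out). Ppargc1a, a coactivator of biogenesis, had 6.51 CPM at the lowest, 16.2 at the median and 81.2 at the highest in AAV-delta-mut-p53 tumours, against 9.94, 6.90 and 17.5 CPM in AAV-Control tumours (1.54 ± 0.86). Tfam, which packages mitochondrial DNA and starts its transcription, was at -0.15 ± 0.35, the nuclear receptor Esrra at 0.33 ± 0.44 and Mterf3, a regulator of mitochondrial transcription, at -0.55 ± 0.29. Yy1 had 50.8 to 78.1 CPM in AAV-delta-mut-p53 tumours, all above the 48.6, 49.4 and 45.1 CPM in AAV-Control tumours. It was the 1 regulator of the 15 with such a separation, which 1.47% of all genes had, and it did not pass (edgeR adjusted p = 0.677).

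Of 14 genes that handle mitochondrial RNA, 9 were above and 5 below 0 with a median of 0.22 (0.02 to 0.23 with a tumour left out), the lowest without AAV-Control tumour 2, with Fastkd1 at 0.59 ± 0.36 and the mitochondrial DNA-binding protein Ssbp1 at -0.38 ± 0.33. Of 42 tested assembly factors, 28 were above and 14 below 0 with a median of 0.24 (0.08 to 0.29 with a tumour left out), again the lowest without AAV-Control tumour 2. Ndufaf2, which helps to assemble complex I, had 5.59, 11.9 and 21.5 CPM at the lowest, median and highest in AAV-delta-mut-p53 tumours, against 17.8, 31.9 and 33.9 CPM in AAV-Control tumours (-1.16 ± 0.45, edgeR unadjusted p = 0.0258, adjusted p = 0.677). Bcs1l, which inserts the Rieske protein into complex III, was at 0.81 ± 0.43. Of 14 carriers and related genes, 8 were above and 6 below 0 with a median of 0.04 (-0.07 to 0.10 with a tumour left out). Cytochrome c (Cycs) was at 0.25 ± 0.40, and Coq9, needed to make ubiquinone, at 1.11 ± 0.42 (edgeR unadjusted p = 0.0245, adjusted p = 0.677). Ckmt2, the mitochondrial creatine kinase of muscle, had 139 CPM in AAV-delta-mut-p53 tumour 2 and at most 1.03 CPM in the other 8.

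Of 19 glycolysis genes, 16 were above and 3 below 0 with a median of 0.47 (0.37 to 0.67 with a tumour left out). The difference from the subunits was not tested. Hk2, a hexokinase, had 57.0, 79.4 and 122 CPM at the lowest, median and highest in AAV-delta-mut-p53 tumours, against 37.5, 25.4 and 65.8 CPM in AAV-Control tumours (0.99 ± 0.39, edgeR unadjusted p = 0.0299, adjusted p = 0.677). Aldoa, an aldolase, had 242, 969 and 1467 CPM, against 387, 347 and 379 CPM in AAV-Control tumours (1.31 ± 0.53, edgeR unadjusted p = 0.0307, adjusted p = 0.677). Both overlapped between the arms. Of 12 hypoxia-responsive genes, 7 were above and 5 below 0 with a median of 0.44 (0.08 to 0.98 with a tumour left out), the lowest without AAV-delta-mut-p53 tumour 2. Without AAV-delta-mut-p53 tumour 6 the hypoxia median was 0.45, with 7 above and 5 below 0. The member Ndufa4l2, which responds to low oxygen, was highest in tumour 2. Of the 12 hypoxia genes, the 2 with the smallest p were highest in tumour 6, whose values entered that p. The whole hypoxia list was not summed by tumour. Adm, a vasodilator peptide, had 60.8 CPM in AAV-delta-mut-p53 tumour 6 and 2.43 to 28.6 CPM in the other 8, and Ndrg1 had 1350.5 CPM there and 17.3 to 702 CPM in the others. The glycolysis genes also summed highest in that tumour, to 8734 CPM, against 3258 to 7105 CPM in the other 8. How these values relate to its low mitochondrially encoded RNA was not tested.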

How the data were processed

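Total RNA of 9 flash-frozen tumours was sequenced as stranded libraries, per the labels' protocols. The authors deposited a single table of raw counts per gene, in whole numbers, which were used unchanged. The submitters' processing notes name STAR 2.6.0b, DESeq2 and the build GRCm38 but do not say what each was used for. The counting program, its strand setting, its treatment of multi-mapped reads and the annotation could not be read from the sources used here. All 99 member identifiers matched GENCODE M21 with their version, which supplied symbols, positions and exonic lengths.

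Counts were scaled by TMM in edgeR 4.0.16 (R 4.3.3). Genes kept by filterByExpr (minimum count 10) were tested by the 2-sided quasi-likelihood test without covariates, adjusted by Benjamini-Hochberg over all 19606 genes at 0.05. DESeq2 1.42.0, limma 3.58.1 (voom with quality weights), other scalings and filters, and left-out tumours were alternatives. The edgeR, DESeq2 and voom fits were also run on counts simulated from the observed means and edgeR's own spreads, without an outlying tumour. That run cannot show how the tools behave with single outlying tumours or why their calls differ here. DESeq2 gave no p for Cox6a2, Ndufa4, Atp5c1 and Atp5h.

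The members and lists were chosen with earlier results of these data known. Named genes were the mitochondrially encoded members, the isoforms and their partners, Sdha to Sdhd, the 5 nuclear members with the smallest p in each direction, the 2 with the highest mean CPM in each of complexes I, III, IV and V, Trp53, fixed list genes, and the 2 with the smallest p of each list other than cell markers. A gene that this rule names is not reported here. Other genes named (Atp5c1, Atp5h, Ndufb6, Ndufs5, Ndufab1, Atp5g2, Atp5g3, Epcam, Cdh5, Pecam1, the mitochondrial ribosomal RNAs, pseudogenes and neighbours) were chosen after their values were seen.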

Additional observations from a re-analysis of the deposited data

Results flagged for a closer look

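Of the 39 tested members that the naming rule gives, looked at on the log2 scale within the 6 AAV-delta-mut-p53 tumours, 5 had 1 tumour whose gap to the nearest other was too large a share of the group's range by Dixon's test at the 95% level. Chance flags about 1 group in 20, a rate set for members not picked on earlier results, which these were in part. mt-Nd5 and mt-Cytb were low in tumour 6, at 253 CPM against 594 to 979 CPM in the other 5, and at 683 CPM against 1761 to 2766 CPM. mt-Atp6 was high in tumour 2, at 2.86 CPM against 0.693 to 1.08 CPM, and it is nearly identical to a nuclear copy. Cox6a2, the muscle form, was high in tumour 2, at 99.1 CPM against 0.122 to 1.07 CPM. Ndufa4 was high in tumour 3, at 875 CPM against 54.4 to 133 CPM.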

How the results depend on the processing

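No paired analysis was possible because the labels carry no replicate number that ties a tumour of one arm to a tumour of the other. The number of genes past an adjusted p of 0.05 was 0 with edgeR under each scaling, filter and left-out tumour and 0 with limma voom, 104 with DESeq2 and 261 with DESeq2 without AAV-delta-mut-p53 tumour 2. The cause was not tested. At an unadjusted p under 0.05 edgeR had 1387 genes, 2443 of 35482 with no filter, 925 of 12612 with at least 1 CPM in every tumour, and between 874 and 2009 with each tumour left out. The median over all genes was 0.088 on the log2 scale, 0.20 with no filter and -0.016 under limma voom. The median of the muscle isoforms was taken over Cox6a2 and Cox7a1, as Cox8b did not pass the filter. It was 3.78, 1.07 under limma voom, 0.81 with DESeq2 without tumour 2, and from 0.80 to 4.17 with each tumour left out, the lowest without tumour 2. The ratio of muscle isoforms to partners differed by 1.81 on the log2 scale, with a range of 0.81 to 2.07. The log2 ratio of summed mitochondrially encoded to summed nuclear subunit counts, group difference, was -0.26, ranged over -0.49 to -0.0052 with each tumour left out and was 0.006 with mean log2 levels in place of sums.

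Small fold changes turned sign. Under limma voom mt-Nd2 was at -0.061, mt-Nd4 at -0.021, Sdha at 0.016, Sdhc at -0.13 and Nrf1 at 0.012. The log2 fold change of Cox7a2l was -0.00069 with no filter and -0.034 with AAV-delta-mut-p53 tumours 4 and 5 summed. With DESeq2 without tumour 2, mt-Nd2 was at -0.15, mt-Nd4 at -0.15, Adipoq at -0.14 and Nrf1 at 0.064, and the log2 fold change of Cox7a2 was 0.0018. With each tumour left out in turn, mt-Nd1 ran from -0.28 to 0.11, mt-Nd2 ran from -0.14 to 0.57, mt-Nd4 ran from -0.14 to 0.41, mt-Nd5 ran from -0.44 to 0.055, mt-Nd6 ran from -0.17 to 0.16, mt-Cytb ran from -0.24 to 0.21, mt-Co1 ran from -0.29 to 0.26, Cox6b1 ran from -0.095 to 0.20, Cox7a2 ran from -0.26 to 0.0049, Cox7a2l ran from -0.071 to 0.17, Cox8a ran from -0.45 to 0.18. In the same way, Sdhc ran from -0.17 to 0.22, Sdhd ran from -0.033 to 0.21, Uqcrc2 ran from -0.30 to 0.041, Ndufb6 ran from -0.16 to 0.49, Ndufs1 ran from -0.039 to 0.48, Ndufv3 ran from -0.95 to 0.36, Atp5a1 ran from -0.037 to 0.29, Atp5h ran from -0.021 to 0.91, Adipoq ran from -0.15 to 3.42, Nrf1 ran from -0.14 to 0.070 and Tfam from -0.34 to 0.028. Of the single-gene values under an alternative, 1192 kept their direction and their side of the threshold and 50 turned sign. As edgeR called 0 genes in the main fit, the side of the threshold could hardly change. The alternatives reuse the same tumours, so these counts do not measure how repeatable the values are. For Cox7b2, Cox8c, mt-Nd3, mt-Nd4l and mt-Atp8 a difference between the arms could not be judged, with at most 11 reads in a tumour. Why these counts were low was not tested.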
